A study of Mus musculus with 6 samples.

Results

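The 31 genes described here are transcribed for the G2 phase and mitosis of the dividing cell: cyclins and their kinase, spindle kinases, the chromosomal passenger complex, spindle checkpoint proteins, partners of the anaphase promoting complex, centromere and spindle proteins, cytokinesis factors and 2 proteins of mitotic chromosomes. They were taken by name from the table of 23337 genes, and all 31 were found. RNA with poly(A) tails was sequenced from a mouse leukemia that the labels call primary and neonatal and the series title MLL-rearranged (driven by a rearrangement of the Mll gene). In 3 libraries the leukemia had been treated with ccl5, a chemokine that attracts leukocytes, and in 3 it was kept under control conditions. Ccl5 replicate 1 is labelled a tertiary transplant; the other treated libraries and control replicate 3 are labelled primary transplants, and for control replicates 1 and 2 no transplant is stated. Strain, age, dose and time of treatment are not given in the sources used here, nor is the way the rearrangement was introduced. Whether each library is a separate animal or culture is also not stated, and p-values therefore cover only the variation among these libraries, which may be technical.

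Cells prepare for division in G2, when CDK1 binds cyclin A and then cyclin B. The active kinase starts mitosis, the spindle checkpoint holds it until every chromosome is attached, and the anaphase promoting complex then marks cyclin B and securin for destruction. Most of these genes are transcribed late in the cell cycle and kept off in resting cells, which is why MKI67 and TOP2A are used as markers of dividing cells, in leukemia as in other tissues. Their promoters typically carry a cell cycle genes homology region (CHR), bound by the MuvB complex as part of DREAM or with B-MYB or FOXM1. They typically also carry boxes bound by the factor NF-Y.

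Promoter letters are shown for 4 members, chosen because their windows match both elements and for the highest levels per length among such members. Matches to these elements are common among the members and were not used to choose the 31 genes. Windows from 250 bases before to 50 bases after the transcription start came from RefSeq (mouse build GRCm38.p6) and were present for 26 of the 31 genes. The motifs searched were TTTGAA (CHR core; TTCAAA on the other strand), CCAAT (NF-Y box; ATTGG on the other strand) and GGCGGGAA (E2F type), on both strands. The sequences below run 5′ to 3′ along the gene's strand, from 250 bases before to 30 bases after the start, with matches to the CHR core and the NF-Y box in capitals. They lie at chr2:164769679-164769958 (plus strand) for Ube2c, chr11:99024160-99024439 (minus strand) for Top2a, chr5:30666636-30666915 (plus strand) for Cenpa and chr7:131560120-131560399 (plus strand) for Bub3.
Ube2c: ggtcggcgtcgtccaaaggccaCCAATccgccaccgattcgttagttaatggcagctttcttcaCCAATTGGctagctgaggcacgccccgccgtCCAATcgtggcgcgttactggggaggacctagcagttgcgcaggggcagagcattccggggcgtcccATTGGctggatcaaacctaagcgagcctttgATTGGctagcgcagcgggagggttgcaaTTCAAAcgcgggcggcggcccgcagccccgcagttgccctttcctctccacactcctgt
Top2a: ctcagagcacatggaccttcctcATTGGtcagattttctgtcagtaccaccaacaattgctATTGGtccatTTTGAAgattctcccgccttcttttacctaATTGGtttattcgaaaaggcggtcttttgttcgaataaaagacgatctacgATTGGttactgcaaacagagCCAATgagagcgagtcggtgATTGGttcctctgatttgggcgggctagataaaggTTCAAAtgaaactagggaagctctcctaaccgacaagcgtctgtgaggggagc
Cenpa: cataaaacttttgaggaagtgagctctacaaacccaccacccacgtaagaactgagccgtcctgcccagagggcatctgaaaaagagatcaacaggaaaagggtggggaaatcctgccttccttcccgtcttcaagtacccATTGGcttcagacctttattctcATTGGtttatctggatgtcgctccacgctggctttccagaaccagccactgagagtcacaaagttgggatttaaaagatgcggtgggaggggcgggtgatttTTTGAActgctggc
Bub3: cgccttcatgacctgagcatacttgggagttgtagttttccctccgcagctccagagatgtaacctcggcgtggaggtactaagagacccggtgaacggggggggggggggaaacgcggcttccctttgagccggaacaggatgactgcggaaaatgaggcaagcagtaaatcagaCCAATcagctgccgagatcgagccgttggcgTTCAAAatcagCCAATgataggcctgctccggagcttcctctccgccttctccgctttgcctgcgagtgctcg

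A CHR core was found in 20 of the 26 windows (76.9%), where 18.1% of the first windows of all 27025 genes hold one. An NF-Y box was found in 22 (84.6%, against 37.9% of all), and 19 windows (73.1%, against 7.12%) held both. The E2F type motif was in 0 of the 26, where 2.24% of all windows hold it. Matches to the CHR core lay close to the start: their median position was -1, and 20 of 26 matches (76.9%) began within 50 bases of it, against 24.8% of the 5632 matches in all promoters. NF-Y boxes had a median position of -71 over 55 matches, against -91 over 14907 matches in all promoters. Of the 55, 17 (30.9%) began within 50 bases of the start, close to the 28.3% in all promoters. Of a list of 42 genes of G1/S and DNA replication, 33 had a window. Of these, 4 (12.1%) held the CHR core, 22 (66.7%) the NF-Y box and 7 (21.2%) the E2F type motif. Among 22 windows of further kinetochore and checkpoint genes, 7 (31.8%) held the CHR core and 14 (63.6%) the NF-Y box. Among 10 windows of further mitotic kinesins the counts were 8 (80.0%) and 6 (60.0%). Matches of letters are a description and not evidence of binding.

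**Figure D1:**
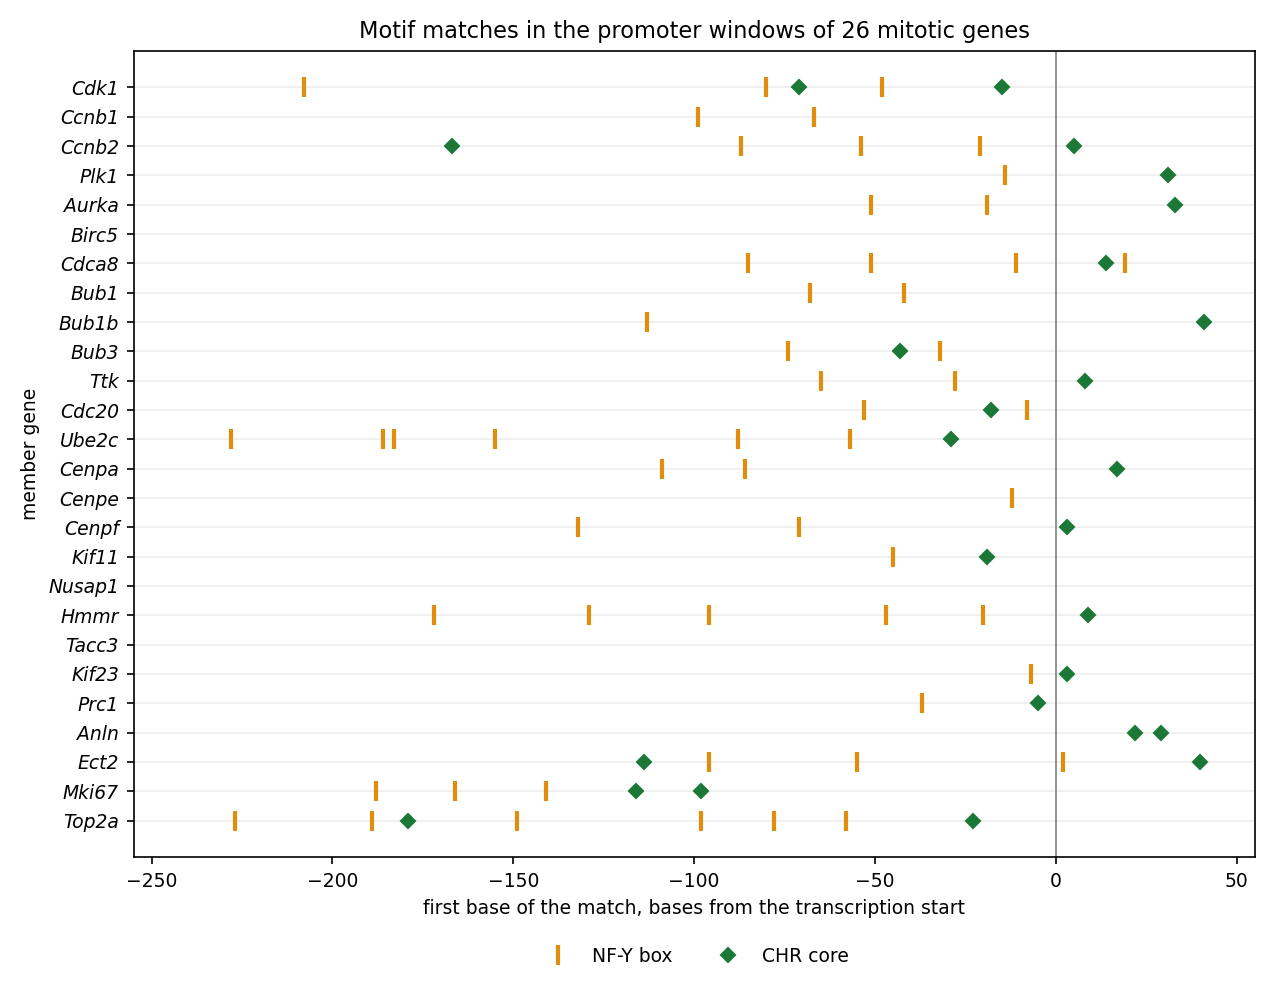
Positions of motif matches in the promoter windows of 26 of the 31 genes; the horizontal axis gives the first base of each match in bases from the transcription start, orange bars stand for NF-Y boxes and green diamonds for CHR cores. Of 26 CHR core matches 20 begin within 50 bases of the start. The rows of Birc5, Nusap1 and Tacc3 hold no match to either motif as searched.

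Library totals were 13421100 to 18445095 counts. Levels are given in CPM, counts scaled to library size with TMM factors, which adjust for depth and composition. At these totals 3 counts correspond to 0.16 to 0.273 CPM, and the lowest count of any of the 31 genes in any library was 26. The libraries formed 3 closely alike pairs that crossed the groups: ccl5 replicates 1 and 3 (Pearson r 0.995 across genes), control replicates 1 and 2 (r 0.997), and ccl5 replicate 2 with control replicate 3 (r 0.997). All other pairs had r between 0.841 and 0.902. Counts within each alike pair differed by more than sampling noise (chi-square 3.55 to 7.27 times its degrees of freedom), so none was treated as the same library deposited again. That check does not tell separate samples from repeat preparations of 1 RNA, and n = 3 counts libraries. Transcripts of 4 Y-linked genes had 0 counts in ccl5 replicates 1 and 3 and 5103 to 7777 in the other libraries. Control replicate 3 and ccl5 replicates 2 and 3 share the primary transplant label and neo10 in their source names, while ccl5 replicate 1, labelled tertiary, has neo30. The library called ccl5 replicate 3 here nevertheless resembled ccl5 replicate 1. Its transplant label, or that of ccl5 replicate 1, may thus not hold, and each result that rests on these labels depends on them.

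The comparison of ccl5 with control asked whether these genes differ with treatment. None of the 31 passed the test. Instead, each showed the same layout of libraries: ccl5 replicate 2 and control replicate 3 were the 2 highest, control replicates 1 and 2 lay between, and ccl5 replicates 1 and 3 were the 2 lowest, in 31 of 31 genes. Among the 12174 genes tested, 1946 (15.98%) showed that layout, which was chosen for description after the values were seen. Summed over the 31 genes, the level was 540 CPM, 4096 CPM and 411 CPM in ccl5 replicates 1 to 3 and 1748 CPM, 1873 CPM and 3989 CPM in control replicates 1 to 3. The share of all counts taken by these genes ran from 0.0336% in ccl5 replicate 3 to 0.485% in ccl5 replicate 2, both labelled as treated primary transplants. In RNA from whole samples, fewer dividing cells and less mitotic RNA per cell cannot be told apart.

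**Figure D2:**
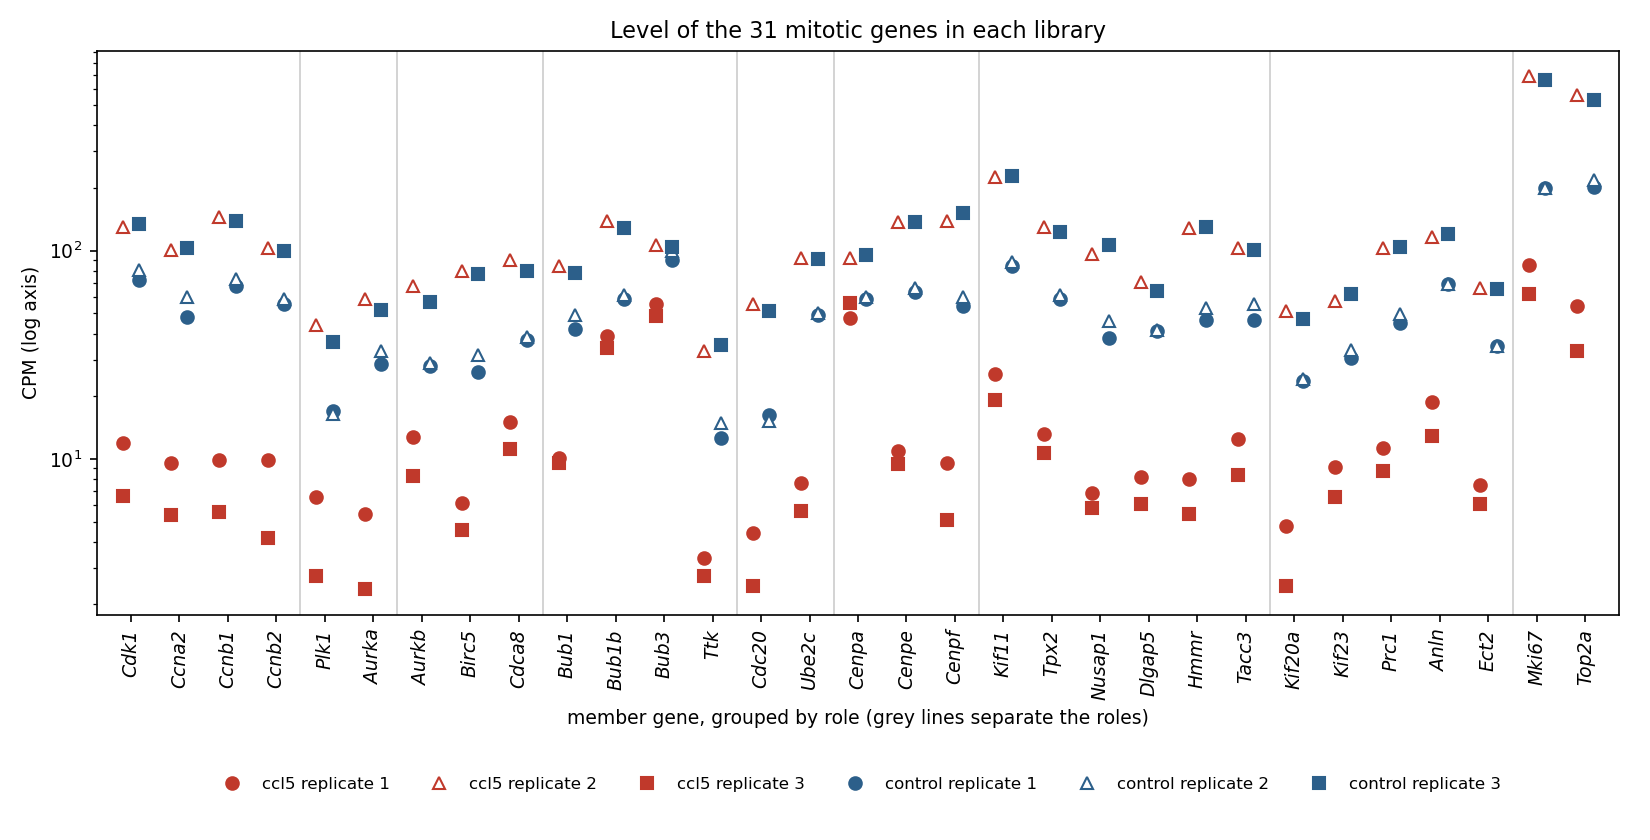
Level in CPM (log axis) of each of the 31 genes in each library, ccl5 in red and control in blue, with a marker shape per replicate and grey lines between roles. In every gene ccl5 replicate 2 and control replicate 3 lie at the top and ccl5 replicates 1 and 3 at the bottom.

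With all 6 libraries the log2 fold change, ccl5 over control, was below 0 in 31 of 31 genes, against 51.0% of the genes tested. The 31 genes shared the same layout of libraries, so their signs are not 31 separate results. The log2 fold change ran from -0.95 (Cdk1) to -0.13 (Cenpa), with a median of -0.70 against -0.01 over all tested genes. The median SE was 1.04, against 0.31 for the whole table. The adjusted p from the quasi-likelihood test of edgeR ran from 0.505 (Bub3) to 0.896 (Cdc20). At an adjusted p under 0.05 edgeR called 0 of the 31 genes lower, and 0% of the 12174 tested. At an unadjusted p under 0.05 there were also 0 of the 31, where 1663 of the 12174 genes reached it, 568 of them lower. In 0 of the 31 genes did the 3 ccl5 libraries all lie below the 3 controls, against 7.49% of the genes tested. In 31 of 31 genes the SD of log2 CPM among the 3 ccl5 libraries was larger than the fitted difference between the groups. The mean log2 CPM of the 31 genes had an SD of 1.96 within ccl5 and 0.61 within control.

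Cyclins and CDK1 set the time of entry into mitosis. Ccnb2, which encodes a B-type cyclin (chr9:70407689-70421554, mm10 as in the deposited table), measured 9.83 CPM, 103 CPM and 4.19 CPM in ccl5 replicates 1 to 3 and 55.5 CPM, 58.4 CPM and 100 CPM in control replicates 1 to 3. Ccnb1, the main mitotic cyclin (chr13:100778739-100786486), measured 9.90 CPM, 146 CPM and 5.55 CPM with ccl5 and 67.3 CPM, 73.5 CPM and 138 CPM in controls. In both genes the highest and the lowest library were both treated. The group means of Ccnb1 were 53.7 ± 79.7 CPM and 93.0 ± 39.3 CPM (SD, n = 3 each), and its log2 fold change was -0.79 (SE 1.21, edgeR adjusted p = 0.788). Cdk1, the kinase that these cyclins activate, ran from 6.64 CPM in ccl5 replicate 3 to 134 CPM in control replicate 3, with a log2 fold change of -0.95 (SE 1.10). Ccna2, the cyclin A of S phase and G2, ran from 5.37 CPM to 103 CPM in the same libraries. Exons of Ccna2 overlap those of Exosc9, so some of its reads cannot be assigned to 1 gene.

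Aurka and Plk1 encode kinases that mature the centrosomes and build the spindle. Aurka (chr2:172356196-172370506) measured 5.41 CPM, 58.6 CPM and 2.37 CPM in ccl5 replicates 1 to 3 and 28.6 CPM, 33.1 CPM and 51.7 CPM in controls. Plk1 (chr7:122159437-122169875) measured 6.55 CPM, 44.1 CPM and 2.73 CPM with ccl5 and 16.99 CPM, 16.4 CPM and 36.4 CPM in controls. Both ranges overlapped, and the highest library exceeded the lowest 24.8-fold for Aurka and 16.1-fold for Plk1. The fitted log2 fold changes were -0.77 (SE 1.13) and -0.38 (SE 1.01).

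The chromosomal passenger complex corrects faulty attachments of chromosomes and guides the last cut between daughter cells. Its member Cdca8, which encodes borealin (chr4:124918465-124936917), measured 15.0 CPM, 90.1 CPM and 11.1 CPM in ccl5 replicates 1 to 3 and 37.3 CPM, 38.3 CPM and 79.8 CPM in controls. Aurkb, the kinase of the complex (chr11:69045643-69051662), measured 12.7 CPM, 67.6 CPM and 8.28 CPM with ccl5 and 27.8 CPM, 28.7 CPM and 56.6 CPM in controls. The spread of both was close to 8-fold (8.12 and 8.16). Birc5, which encodes survivin, had a wider spread of 17.5-fold, from 4.55 CPM in ccl5 replicate 3 to 79.8 CPM in ccl5 replicate 2. Log2 fold changes were -0.42 (SE 0.86) for Cdca8, -0.35 (SE 0.83) for Aurkb and -0.58 (SE 1.16) for Birc5.

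The spindle checkpoint delays anaphase until every kinetochore is attached. Bub3, a checkpoint scaffold protein (chr7:131560391-131571898), varied less than most: 55.4 CPM, 106 CPM and 48.3 CPM in ccl5 replicates 1 to 3 and 90.6 CPM, 100 CPM and 105 CPM in controls. It had the smallest adjusted p of the 31 genes, with a log2 fold change of -0.49 (SE 0.32, edgeR adjusted p = 0.505), and ccl5 replicate 2 was its highest library. Bub1b, which encodes the checkpoint protein BUBR1 (chr2:118598211-118641592), measured 39.0 CPM, 139 CPM and 34.0 CPM with ccl5 and 58.9 CPM, 61.4 CPM and 129 CPM in controls. The highest library exceeded the lowest 2.20-fold for Bub3 and 4.10-fold for Bub1b. Bub1 and Ttk, the checkpoint kinases that recruit other factors to kinetochores, spread 8.84-fold and 12.9-fold. Ttk lay between 2.73 CPM and 35.1 CPM.

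The anaphase promoting complex is a ubiquitin ligase, and CDC20 and UBE2C are its activator and its ubiquitin conjugating enzyme. Ube2c (chr2:164769929-164772902) measured 7.69 CPM, 92.6 CPM and 5.64 CPM in ccl5 replicates 1 to 3 and 49.2 CPM, 50.3 CPM and 90.9 CPM in controls. Cdc20 (chr4:118432901-118437343) measured 4.42 CPM, 55.8 CPM and 2.46 CPM with ccl5 and 16.2 CPM, 15.2 CPM and 51.1 CPM in controls. Control replicates 1 and 2 thus stood nearer to the top pair for Ube2c than for Cdc20, where they lay closer to the bottom pair in CPM. The log2 fold changes were -0.84 (SE 1.09) and -0.39 (SE 1.22). Exons of Cdc20 overlap those of Elovl1.

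Cenpa encodes the histone H3 variant that marks centromeres (chr5:30666902-30674826), and it had the smallest spread of the 31 genes. It measured 47.7 CPM, 91.7 CPM and 55.8 CPM in ccl5 replicates 1 to 3 and 58.7 CPM, 59.9 CPM and 95.2 CPM in controls, a 1.995-fold range. The low ccl5 libraries lay below control replicates 1 and 2, and the group means were 65.1 ± 23.4 CPM and 71.2 ± 20.8 CPM (SD, n = 3 each). Cenpf, a kinetochore and nuclear matrix protein (chr1:189640614-189688086), had the largest spread, 29.9-fold. Its values were 9.54 CPM, 139 CPM and 5.10 CPM with ccl5 and 54.3 CPM, 59.9 CPM and 152 CPM in controls. Cenpe, the kinesin that moves chromosomes to the spindle equator (chr3:135212563-135273540), measured 10.97 CPM, 137 CPM and 9.47 CPM with ccl5 and 63.2 CPM, 65.8 CPM and 137 CPM in controls. Log2 fold changes were -0.13 (SE 0.33) for Cenpa, -0.79 (SE 1.25) for Cenpf and -0.75 (SE 1.09) for Cenpe.

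Spindle assembly was represented by 6 genes. Kif11, the kinesin that pushes the spindle poles apart (chr19:37376403-37421859), measured 25.5 CPM, 227 CPM and 19.2 CPM in ccl5 replicates 1 to 3 and 84.7 CPM, 88.6 CPM and 228 CPM in controls. Tacc3, which stabilises spindle microtubules (chr5:33658147-33672197), measured 12.5 CPM, 103 CPM and 8.37 CPM with ccl5 and 46.5 CPM, 55.3 CPM and 101 CPM in controls. For both, ccl5 replicate 2 and control replicate 3 nearly coincided. The microtubule factors Tpx2, Nusap1, Dlgap5 and Hmmr showed the same layout, with spreads of 12.2-fold, 18.2-fold, 11.6-fold and 23.9-fold. Log2 fold changes of the 6 genes lay between -0.56 (Kif11, SE 1.03) and -0.80 (Nusap1, SE 1.15). Exons of Nusap1 overlap those of Oip5.

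Central spindle and cytokinesis factors divide the cell after anaphase. Prc1, which bundles the microtubules of the central spindle (chr7:80294465-80316259), measured 11.3 CPM, 104 CPM and 8.74 CPM in ccl5 replicates 1 to 3 and 45.1 CPM, 49.6 CPM and 104 CPM in controls. Anln, a scaffold of the contractile ring (chr9:22331214-22389206), measured 18.7 CPM, 117 CPM and 12.8 CPM with ccl5 and 69.0 CPM, 69.0 CPM and 120 CPM in controls. The ranges overlapped, with log2 fold changes of -0.68 (SE 1.01) and -0.80 (SE 0.86). The kinesins Kif20a and Kif23 and the cytokinesis factor Ect2 spread 21.0-fold, 9.40-fold and 10.9-fold. Exons of Kif20a overlap those of Brd8 and Cdc23.

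Mki67 and Top2a coat and untangle mitotic chromosomes and had the highest counts. Mki67, which encodes the Ki-67 antigen (chr7:135689788-135716379), measured 85.0 CPM, 687 CPM and 61.8 CPM in ccl5 replicates 1 to 3 and 201 CPM, 199 CPM and 659 CPM in controls. Top2a, which encodes topoisomerase II alpha (chr11:98992947-99024189), measured 54.5 CPM, 558 CPM and 33.0 CPM with ccl5 and 203 CPM, 219 CPM and 529 CPM in controls. Each thus differed more within the treated group than between the group means, which were 278 ± 354 CPM and 353 ± 265 CPM for Mki67 (SD, n = 3 each). The log2 fold changes were -0.34 (SE 1.04, edgeR adjusted p = 0.894) and -0.56 (SE 1.11, edgeR adjusted p = 0.836).

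Across the 31 genes, the ratio of the highest to the lowest library had a median of 12.9, against 2.05 over all genes tested. It passed 8 in 28 of them, where 11.6% of genes tested passed it. The 3 exceptions were Cenpa, Bub3 and Bub1b. Their promoter windows each held a CHR core and an NF-Y box. Of the 23 genes with a window and a range over 8, 17 (73.9%) held a CHR core and 16 (69.6%) held both. No match to the CHR core letters was found for Ccnb1, Cenpe, Bub1, Birc5, Nusap1 and Tacc3. Ccl5 replicate 2 was the highest library in 20 genes and control replicate 3 in 11, and ccl5 replicate 3 was the lowest in 30. The remaining gene was Cenpa, whose lowest library was ccl5 replicate 1.

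Ratios of single libraries show the size of these steps. Ccl5 replicate 2 exceeded ccl5 replicate 1 by a median of 9.83-fold (1.92-fold to 16.1-fold) and ccl5 replicate 3 by 12.3-fold (1.64-fold for Cenpa to 27.2-fold). Control replicate 3 exceeded control replicate 1 by a median of 2.14-fold, from 1.16-fold for Bub3 to 3.29-fold for Mki67. Control replicate 1 exceeded ccl5 replicate 1 by a median of 4.14-fold. Further steps between treatments had medians from 12.9-fold (control replicate 3 over ccl5 replicate 3) through 9.40-fold (control replicate 3 over ccl5 replicate 1) and 5.75-fold (control replicate 1 over ccl5 replicate 3) to 1.03 for ccl5 replicate 2 over control replicate 3. Large and small steps were thus found both within and between treatments. In the pair of ccl5 replicate 2 and control replicate 3 the ratio ran from 0.911 (Nusap1) to 1.21 (Plk1), and its exact binomial 95% interval lay above 1 in 8 genes, below 1 in 2 and across 1 in 21. Control replicate 2 over control replicate 1 gave a median of 1.05, with 12 intervals above 1, 0 below and 19 across it. These intervals cover counting error only and compare libraries, not conditions.

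The pair of low libraries was less uniform. Ccl5 replicate 1 over ccl5 replicate 3 had a median ratio of 1.38, with the interval above 1 in 20 genes, below 1 in 1 and across it in 10. The highest ratios belonged to Plk1 (2.40, interval 1.57 to 3.75), Ccnb2 (2.35, 1.67 to 3.35) and Aurka (2.29, 1.45 to 3.72). Top2a had a ratio of 1.65 (1.45 to 1.87) and Mki67 one of 1.38 (1.25 to 1.51). Bub1 had a ratio of 1.06 (0.817 to 1.38), and Cenpa was the gene whose interval lay below 1 (0.855, 0.765 to 0.956). With 1 library labelled tertiary and 1 labelled primary in this pair, the transplant and the library cannot be told apart.

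**Figure D3:**
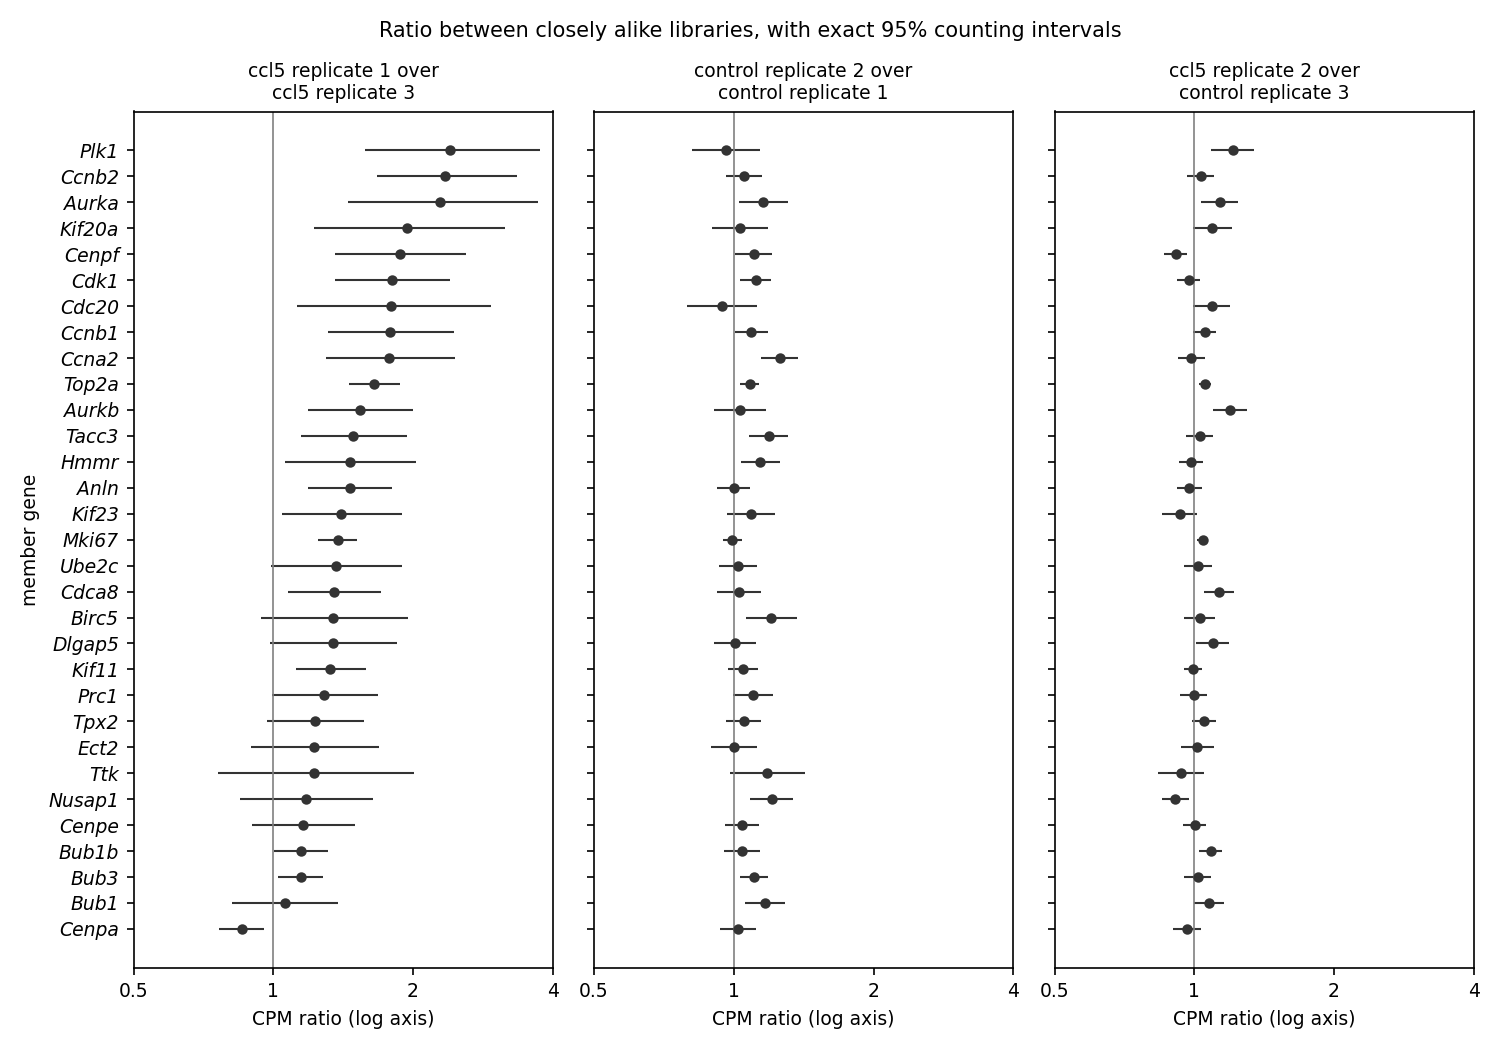
CPM ratio (log axis) of each gene between the members of the 3 closely alike library pairs, points with exact 95% counting intervals, ordered by the left panel. Ratios of ccl5 replicate 1 over ccl5 replicate 3 run from 0.855 to 2.40, while those of the other pairs stay between 0.911 and 1.25.

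Levels per length, in TPM from the exon lengths of the deposited table, allow genes to be compared with each other. Averaged over the 6 libraries the highest levels were those of Ube2c (102 TPM), Top2a (98.9 TPM), Cenpa (91.9 TPM) and Bub3 (73.7 TPM), and the lowest was that of Ttk (10.5 TPM), although Cenpf was lower than Ttk in ccl5 replicates 1 and 3 (1.29 TPM and 0.647 TPM). The order differed between library pairs. In ccl5 replicates 1 and 3 Cenpa led with 53.6 TPM and 58.9 TPM, and Bub3 followed with 40.5 TPM and 33.2 TPM, while Top2a measured 15.7 TPM and 8.94 TPM there. In ccl5 replicate 2 and control replicate 3 Top2a led with 227 TPM and 208 TPM, and Ube2c followed with 211 TPM and 200 TPM. Control replicates 1 and 2 had Ube2c at 87.8 TPM and 89.9 TPM, followed by Bub3 at 73.2 TPM and 81.0 TPM. Ube2c and Top2a, neighbours in the mean order, differed by less than their spread over libraries (8.56 TPM to 211 TPM and 8.94 TPM to 227 TPM).

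The regulators of these genes were read from lists of other cell cycle genes, 166 symbols of which 164 were in the table and tested. EdgeR called 0 of the 164, and 6 had an unadjusted p under 0.05, beside 0 called and 1663 under that p among the 12174 genes. Foxm1, the transcription factor that activates many G2/M genes, had the members' layout: 5.34 CPM, 44.4 CPM and 3.09 CPM in ccl5 replicates 1 to 3 and 19.2 CPM, 18.8 CPM and 43.6 CPM in controls. Mybl2, which encodes B-MYB, measured 7.05 CPM, 68.6 CPM and 4.28 CPM with ccl5 and 33.7 CPM, 34.6 CPM and 59.8 CPM in controls. Both gave fold changes within their error, -0.62 (SE 1.03) and -0.68 (SE 1.04) on the log2 scale. Nfya, a subunit of NF-Y, differed in layout, at 207 CPM, 90.9 CPM and 226 CPM with ccl5 and 96.5 CPM, 90.4 CPM and 89.1 CPM in controls. Its fitted log2 difference was 0.92 (SE 0.35, edgeR adjusted p = 0.365). Only the low pair of the members stood apart for it, and there it was high.

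Inhibitors of cyclin dependent kinases ran differently. Cdkn1a, which encodes p21, measured 335 CPM, 78.0 CPM and 342 CPM in ccl5 replicates 1 to 3 and 239 CPM, 213 CPM and 76.7 CPM in controls. It was thus lowest in the 2 libraries where the mitotic genes were highest, with a log2 fold change of 0.51 (SE 0.67, edgeR adjusted p = 0.746). Cdkn1b, which encodes p27, measured 96.9 CPM, 76.2 CPM and 106 CPM with ccl5 and 82.2 CPM, 79.6 CPM and 78.1 CPM in controls, so its groups overlapped. Cdkn2c, which encodes p18, measured 74.6 CPM, 146 CPM and 87.2 CPM with ccl5 and 164 CPM, 160 CPM and 157 CPM in controls, so its groups did not overlap, although it missed the test (edgeR adjusted p = 0.367). Of the 7 inhibitors 4 had a fold change below 0.

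E2F factors drive the earlier G1/S genes. E2f1 measured 30.3 CPM, 52.5 CPM and 27.7 CPM in ccl5 replicates 1 to 3 and 28.7 CPM, 24.5 CPM and 45.7 CPM in controls, with control replicates 1 and 2 as low as the low ccl5 pair. E2f2 measured 48.2 CPM, 37.0 CPM and 41.0 CPM with ccl5 and 22.7 CPM, 23.1 CPM and 36.6 CPM in controls, with no overlap but a narrow gap (log2 fold change 0.61, SE 0.25, edgeR adjusted p = 0.365). Among 42 genes of G1/S and DNA replication the fold change was below 0 in 35, with a median of -0.29. Most of these 42 genes shared the members' layout. Ccl5 replicate 2 and control replicate 3 were the 2 highest libraries in 35, against 27.8% of genes tested. Ccl5 replicates 1 and 3 were the 2 lowest in 37, against 30.3%. Cdt1, which licenses replication origins, was the one with the smallest p: 60.8 CPM, 53.4 CPM and 52.6 CPM with ccl5 and 36.7 CPM, 36.4 CPM and 41.7 CPM in controls. Its groups did not overlap, and its log2 fold change was 0.54 (SE 0.14, edgeR adjusted p = 0.365).

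Other mitotic lists shared the top of the members' layout to differing degrees. Ccl5 replicate 2 and control replicate 3 were the 2 highest in 10 of 10 further mitotic kinesins. The same held for 27 of 27 further kinetochore and checkpoint genes, 12 of 13 genes of mitotic entry and 13 of 16 condensin and cohesin genes. It held for 6 of 10 further cytokinesis genes and 7 of 16 anaphase promoting complex subunits, against 27.8% of genes tested. The fold change was below 0 in 10 of 10 further mitotic kinesins (median -0.61), 26 of 27 further kinetochore and checkpoint genes (-0.54) and 12 of 13 genes of mitotic entry (-0.65). It was below 0 in 11 of 16 condensin and cohesin genes (-0.28), 7 of 10 further cytokinesis genes (-0.56) and 9 of 16 subunits of the anaphase promoting complex (-0.06), many of which serve outside mitosis as well. The summed level of the kinesins ran from 36.0 CPM in ccl5 replicate 3 to 476 CPM in ccl5 replicate 2, and that of the anaphase promoting complex only from 901 CPM to 1133 CPM. Smc4, a condensin subunit, measured 182 CPM, 401 CPM and 201 CPM in ccl5 replicates 1 to 3 and 402 CPM, 449 CPM and 417 CPM in controls. Its groups did not overlap, though ccl5 replicate 2 came within 2 CPM of a control (log2 fold change -0.69, SE 0.34, edgeR adjusted p = 0.400).

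In the same lists the gene with the smallest p was named for each. Anapc4, a scaffold subunit of the anaphase promoting complex, measured 47.8 CPM, 59.4 CPM and 50.5 CPM in ccl5 replicates 1 to 3 and 80.8 CPM, 82.4 CPM and 60.0 CPM in controls, again with ccl5 replicate 2 and control replicate 3 side by side. Cep135, counted among the further cytokinesis genes, is a centriole protein. It measured 29.6 CPM, 27.0 CPM and 33.6 CPM with ccl5 and 21.0 CPM, 21.4 CPM and 26.8 CPM in controls. Neither passed the test, with edgeR adjusted p = 0.365 and 0.397. Mastl, a kinase of mitotic entry, measured 2.49 CPM, 12.8 CPM and 2.09 CPM with ccl5 and 8.12 CPM, 10.4 CPM and 12.5 CPM in controls. Zwint, a kinetochore protein, measured 24.3 CPM, 62.4 CPM and 23.1 CPM with ccl5 and 50.8 CPM, 50.7 CPM and 59.6 CPM in controls. Kif22, a chromosome arm kinesin, measured 8.05 CPM, 50.9 CPM and 6.01 CPM with ccl5 and 23.5 CPM, 25.6 CPM and 49.9 CPM in controls. All 3 overlapped between groups, with log2 fold changes of -0.83 (SE 0.75), -0.55 (SE 0.42) and -0.61 (SE 0.87).

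**Figure D4:**
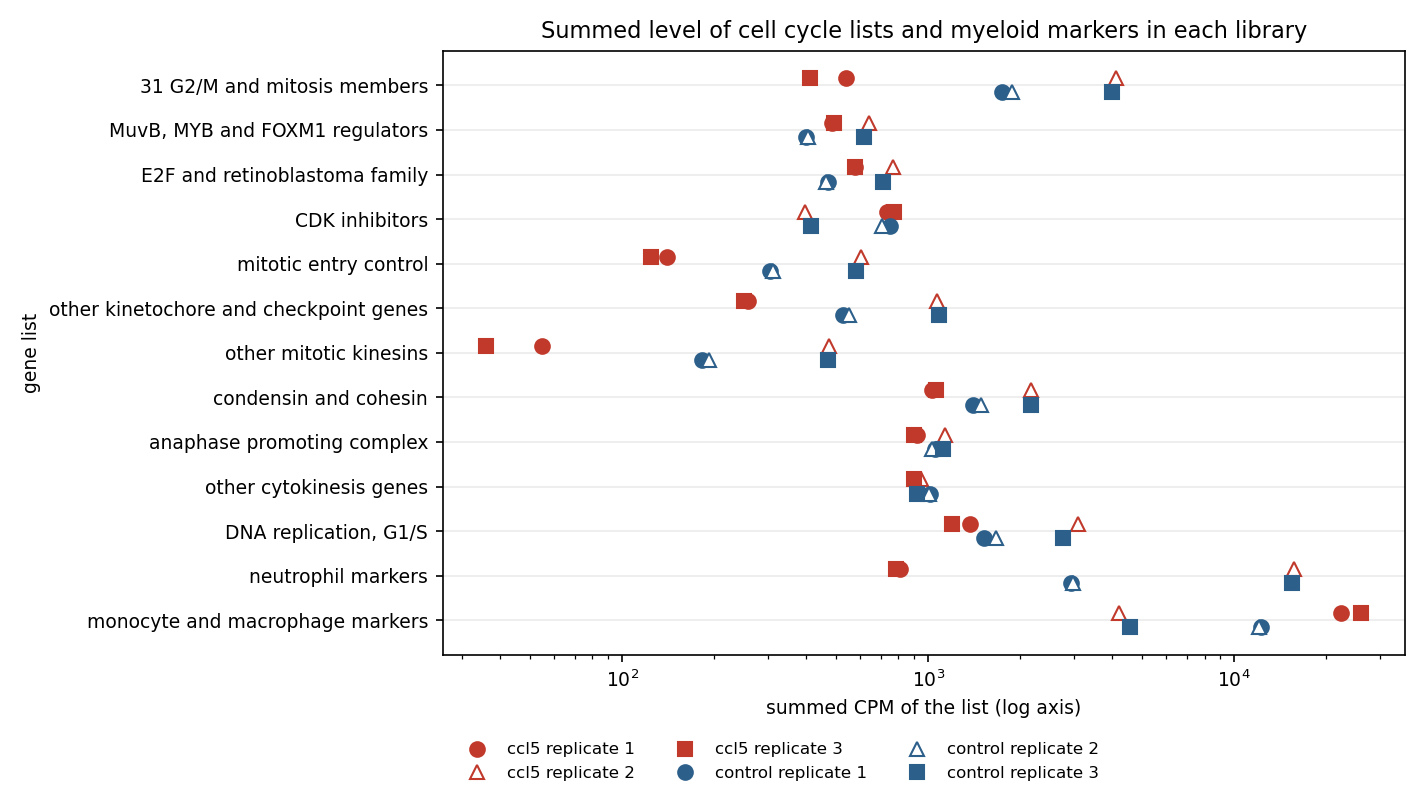
Summed level in CPM (log axis) of the 31 genes, of 10 other cell cycle lists and of neutrophil and monocyte or macrophage markers, 1 symbol per library, ccl5 in red above control in blue. The 31 genes, the neutrophil markers and most other cell cycle lists are highest in ccl5 replicate 2 and control replicate 3. The exceptions are the further cytokinesis genes and the inhibitors of cyclin dependent kinases. Those inhibitors and the monocyte and macrophage markers are lowest in these libraries.

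Most neutrophil markers moved with the mitotic genes across libraries, and monocyte and macrophage markers did not. Of 12 neutrophil and granule genes 11 were in the table. Their summed level was 810 CPM, 15730 CPM and 783 CPM in ccl5 replicates 1 to 3 and 2925 CPM, 2980 CPM and 15498 CPM in controls. In 10 of the 11 ccl5 replicate 2 and control replicate 3 were the 2 highest, against 27.8% of genes tested. Those libraries were the 2 highest in 0 of 13 monocyte and macrophage markers. Their summed level went the other way, with 22401 CPM, 4197 CPM and 25963 CPM in ccl5 replicates 1 to 3 and 12265 CPM, 12010 CPM and 4554 CPM in controls. The part of cell composition in the levels of the mitotic genes was not tested. The 9 genes of leukemia and general myeloid identity, among them Ptprc, Itgam and Hoxa9, summed to between 1877 CPM and 2307 CPM. That sum does not describe single genes: 4 of the 9 had a log2 fold change below 0 and 5 above. Erythroid markers summed to at most 4.34 CPM, with 6 of 12 at 0 counts in each library, T cell markers to at most 2.97 CPM and stromal markers to at most 3.72 CPM. Other lists differed between library pairs. The 5 natural killer cell markers, 2 of them at 0 counts in each library and 1 alone reaching 66.7 CPM, summed to 60.6 CPM in ccl5 replicate 2 and 66.8 CPM in control replicate 3 and to 0.728 CPM to 2.67 CPM elsewhere. The 5 megakaryocyte markers summed to 33.2 CPM and 31.5 CPM in ccl5 replicates 1 and 3 and to 3.93 CPM to 12.9 CPM elsewhere. The sum of the 5 endothelial markers was lowest in ccl5 replicates 1 and 3, at 34.5 CPM and 26.7 CPM against 84.8 CPM to 97.9 CPM. Of these 5, 1 alone reached 94.1 CPM and only 1 passed the filter, so the sum does not show 5 genes moving together. The 8 B cell markers, 1 alone reaching 15.9 CPM, summed to 12.03 CPM to 16.95 CPM over the 6 libraries. The part of these cell types in the result was not tested either.

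Leaving out single libraries moved the result for most of the 31 genes. Without ccl5 replicate 2 the groups did not overlap in 31 of 31 genes, against 31.4% of 12581 genes tested. The layout, with ccl5 replicates 1 and 3 lowest in each of the 31 genes, already implied that count. EdgeR called 28 of the 31 genes lower in that fit, against 11.9%. The log2 fold change then ran from -3.59 (Cenpf, SE 0.66) to -0.46 (Cenpa, SE 0.27), with a median of -2.77. The 3 not called were Mki67 (edgeR adjusted p = 0.0659), Bub1b (0.0943) and Cenpa (0.250). The treated libraries left in that fit were the alike pair without Y-linked transcripts, so treatment and whatever else sets that pair apart cannot be told apart. Without control replicate 3 edgeR called 0 of the 31 genes, against 1.34% of 12579 tested, and 10 of them, Mki67 and Cdc20 with the largest values (0.49 and 0.43), had a log2 fold change above 0. Its median over the 31 genes was then -0.21, and it was -0.26 without ccl5 replicate 1 and -0.22 without ccl5 replicate 3, with 25 genes below 0 in each of those fits.

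Restricting the libraries gave values of both signs. Among the 4 libraries with Y-linked reads, where ccl5 replicate 2 stood alone against the 3 controls, the log2 fold change was above 0 in 31 of 31 genes, with a median of 0.64 and a range of 0.11 to 1.02. Among the libraries labelled primary transplant, with control replicate 3 alone against ccl5 replicates 2 and 3, it was below 0 in 31 of 31 genes, with a median of -0.85. That fit includes ccl5 replicate 3, which resembled the library labelled tertiary. EdgeR called 0 of the 31 genes in either fit, and each lone library was assumed to vary like the other group. DESeq2's Wald test on all 6 libraries gave no p for 21 of the 31 genes and called 0 of the other 10, against 0.666% of 12164 genes called lower. Limma-voom with quality weights called 30 of the 31 genes lower, against 33.5% of the 12174 tested, and gave ccl5 replicate 2 and control replicate 3 weights of 0.0676 and 0.125, where the other libraries had 2.22 to 4.54.

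**Figure D5:**
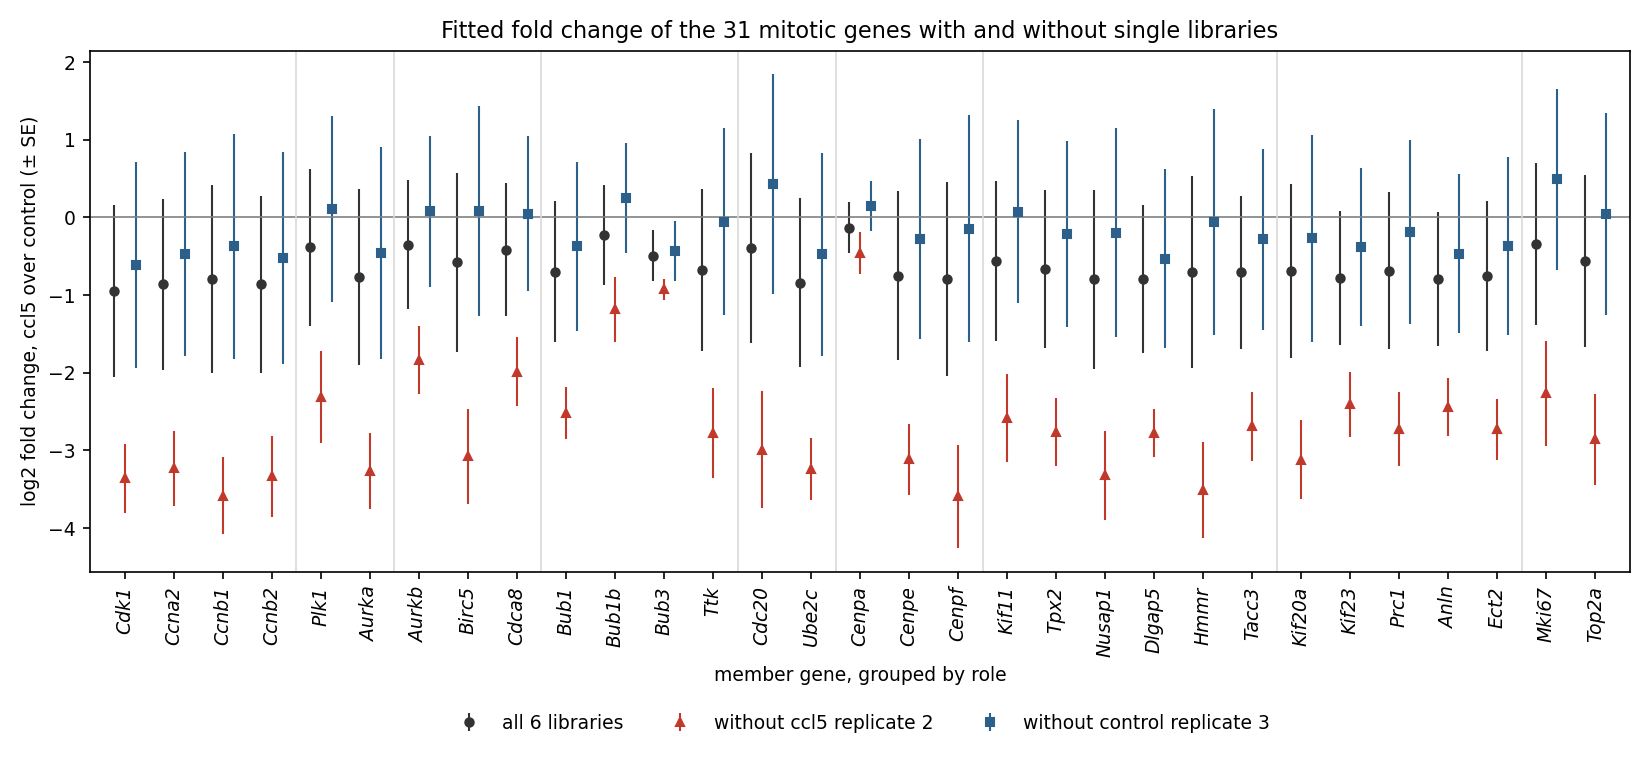
Fitted log2 fold change of each of the 31 genes, ccl5 over control, with its SE, for all 6 libraries (black circles), without ccl5 replicate 2 (red triangles) and without control replicate 3 (blue squares). The values without ccl5 replicate 2 run from -3.59 to -0.46, and those without control replicate 3 from -0.61 to 0.49.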

How the data were processed

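Total RNA was selected for poly(A) and sequenced as single-end reads with a kit that does not mark strand, per the labels' protocols. The authors deposited raw counts per gene for the 6 libraries, made with featureCounts 1.5.1 on primary alignments with an mm10 gene annotation and no strand option, per the file headers. The tools DESeq2, TopHat, Bowtie and Trimmomatic are also listed, without versions, per the submitters' processing notes. The summed exon length in the deposited table gave TPM. Groups came from the treatment labels and titles. The ccl5 libraries were numbered here in the order of the letters that end their titles.

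Counts were scaled by TMM, filtered with filterByExpr (minimum count 10) and tested, two-sided, with the quasi-likelihood test of edgeR 4.0.16 in R 4.3.3, Benjamini-Hochberg adjusted over 12174 genes at 0.05. SEs were derived from the F statistic. Alternatives used limma 3.58.1 and DESeq2 1.42.0, and the scripts were tested on simulated data. The members and lists were chosen with earlier results of these data known. Values in every library were given for the 2 genes per role with the highest mean level per length, the 3 with the widest and the 3 with the narrowest range, Foxm1, Mybl2, Cdkn1a, Cdkn1b, E2f1, and the gene with the smallest p of each other list.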

Additional observations from a re-analysis of the deposited data

How the results depend on the processing

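Without ccl5 replicate 2 edgeR called 3299 genes and 28 of the 31 members, with a median log2 fold change of -2.77. In that fit 31 members did not overlap, as their layout already implied. Without control replicate 3 it called 237 genes. Over the fits that leave out 1 library, genes called ran from 0 to 3299, members called from 0 to 28, the members' median from -2.77 to -0.21, members below 0 from 21 to 31 and members with no overlap from 0 to 31. The fold change changed sign in such fits for Plk1 (-2.31 to 0.13), Aurkb (-1.84 to 0.10), Birc5 (-3.07 to 0.0801), Cdca8 (-1.98 to 0.0508), Bub1b (-1.18 to 0.25), Cdc20 (-2.99 to 0.43), Cenpa (-0.46 to 0.15), Kif11 (-2.58 to 0.077), Mki67 (-2.27 to 0.49) and Top2a (-2.86 to 0.0433). DESeq2 called 199 genes. Limma-voom with quality weights called 8097 genes and 30 members, with a median of -2.20. With Y-linked libraries only, the median was 0.64 and 0 members were below 0. The cause was not tested, beyond the fewer libraries that some fits hold. Other scalings, other filters and a threshold of 0.1 left 0 members called, 31 below 0 and the median between -0.70 and -0.65. Scaling to total counts moved the median of all genes to -0.17, with 65.1% below 0. No paired analysis was possible because the labels give the ccl5 libraries no replicate numbers.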
